A study of Mus musculus with 12 samples.

Results

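The genes described here mark the layers of the cerebral cortex. They are 9 genes of excitatory neurons, chosen by name: Cux1, Cux2, Rorb and Rasgrf2 for the upper layers, and Fezf2, Bcl11b, Tbr1, Tle4 and Foxp2 for the deep layers. All 9 were found among the 41388 genes of the count table, and all 9 were among the 16032 genes that passed the filter on low counts over the 12 libraries. Their values were read library by library as a check of dissection and of the neurons sampled.

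The tissue was medial prefrontal cortex of male Swiss Webster mice aged 10 weeks. There were 3 groups of 4 libraries: conventionally raised mice (CON), mice kept germ-free (GF), and germ-free mice that were moved on postnatal day 21 into the standard animal unit and so were colonized by its microbes (exGF). Each library held RNA pooled from 2 to 3 animals, so a p-value measures the spread between pools and the spread between animals inside a pool was not seen. The exGF libraries are named by their columns (GFR1 to GFR4), which were not tied to the numbers of single samples. The tissue label was checked only broadly against markers, in CPM (counts scaled to library size after TMM normalization). A list of 9 cortical excitatory neuron genes, led by Camk2a (mean 4201 CPM), summed to 6571 to 7606 CPM per library. In any library, 4 hindbrain and spinal cord genes had at most 3 counts. These markers do not tell medial prefrontal cortex from other cortex. Counts on genes ran from 13280926 in GF replicate 1 to 29134760 in CON replicate 3.

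Excitatory neurons of the cortex are born in order, deep layers before upper ones, and each layer has characteristic transcription factors. Neurons of the upper layers connect mainly to other cortical areas, those of layer 5 send axons to the striatum, brainstem and spinal cord, and those of layer 6 send axons to the thalamus. Rodent medial prefrontal cortex has no distinct layer 4, and its deep border lies on white matter near the striatum. In RNA from whole tissue, fewer cells of a type and less RNA per cell cannot be told apart.

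Since Bcl11b, Foxp2 and the layer 5 gene Crym are also made in the striatum, which borders the dissected tissue, 12 striatal neuron genes were read in each library. Their list value, the mean log2 CPM relative to the CON mean, was 1.05 in CON replicate 2 and 0.97 in GFR4, and between -0.68 and 0.10 in the other 10 libraries. Their summed level was 518 CPM in CON replicate 2 and 493 CPM in GFR4, where the other libraries had 261 to 327 CPM. Ppp1r1b, the most abundant of the list, with 15.7% of its exons under an antisense gene, had 143 and 159 CPM in those libraries. The dopamine receptor gene Drd2 had 5.37 and 6.50 CPM there, against at most 1.74 CPM elsewhere. Not all 12 genes stood out in both: Pde10a had 61.8 and 65.5 CPM, below CON replicate 3 (69.1 CPM) and GFR2 (68.5 CPM). Rarb had 9.93 CPM in CON replicate 2, against 10.1 CPM in GF replicate 2. None of the 12 genes was at 0 throughout. In CON replicate 2 the layer genes Cux2 and Foxp2 were the highest of CON, and Cux1, Rasgrf2, Fezf2, Tbr1 and Tle4 the lowest. Rorb and Bcl11b (45.4 CPM) lay between. In GFR4 Fezf2, Bcl11b and Tle4 were the highest of exGF, and Cux1, Rorb, Rasgrf2 and Tbr1 the lowest. Cux2 and Foxp2 lay between. Bcl11b was highest of all libraries in GF replicates 2 and 4 (56.9 and 58.5 CPM), whose striatal list values were 0.10 and -0.22. Crym was the highest of its group in CON replicate 2 and in GFR4. Fezf2 had 39.7 CPM in CON replicate 2, against 48.0 to 50.4 CPM in the rest of CON. It had 55.3 CPM in GFR4, against 39.2 to 40.2 CPM in the rest of exGF, so leaving out both libraries lowers its fold change. With all libraries, exGF against CON gave log2 fold changes of -0.15 for Bcl11b, -0.13 for Foxp2 and 0.26 for Rorb. Without CON replicate 2 and GFR4, an alternative chosen after the data were seen, it gave -0.25, -0.14 and 0.42. Of the 9 layer genes edgeR called 0 in either case, where it called 0.0696% of all tested genes with all libraries and 0.107% (17 of 15858) without these. The mean log2 CPM of the upper minus the deep layer genes then differed by 0.41, against 0.26 with all libraries. Over the 12 libraries the striatal list value had a Pearson's r of -0.39 with this difference (Spearman's rho -0.36), -0.44 with deviations from group means and -0.19 without GF replicate 1 and GFR3. The part of striatal RNA in the layer genes was not tested beyond this.

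Levels were first compared between genes, as CPM per kilobase of the gene's exons, with the mean and SD over 12 libraries. Tbr1, a T-box factor of layer 6 neurons, stood at 25.5 ± 3.11 (SD, n = 12) CPM per kilobase, and Rasgrf2, an exchange factor for Ras in layer 2/3 neurons, at 20.4 ± 2.03. Fezf2, the zinc finger factor that directs layer 5 neurons to subcortical targets, followed at 14.4 ± 1.86. The homeodomain factor Cux2 had 9.96 ± 1.32, the corepressor Tle4 7.49 ± 0.986 and the zinc finger factor Bcl11b 5.59 ± 0.941 CPM per kilobase. Both layer groups thus had members at the top of this order and members at its bottom. Cux1 (3.40 ± 0.291) and the nuclear receptor Rorb (3.16 ± 0.547) came next, and the forkhead factor Foxp2 was lowest at 0.721 ± 0.129. Ranges over the 12 libraries overlapped for 6 of the 8 pairs of neighbours in this order. They were apart between Bcl11b and Cux1 and between Rorb and Foxp2, and Cux1 exceeded Rorb in only 8 of 12 libraries. Per kilobase of the longest transcript the ranges of Bcl11b and Cux1 overlapped, and Bcl11b exceeded Cux1 in 7 of 12 libraries. On that scale the ranges were apart between Rasgrf2 and Fezf2, Fezf2 and Cux2, and Rorb and Foxp2, and Cux1 exceeded Rorb in 12 of 12 libraries. Exons of Cux1 hold 14 annotated transcripts and those of Foxp2 20, so a level per kilobase of all exons is a low estimate for these genes.

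Of the upper layer genes, Cux1 (ENSMUSG00000029705, chr5:136248135-136567490 on GRCm38, minus strand) had 62.5, 62.1, 63.8 and 64.6 CPM in CON replicates 1 to 4. It had 73.4, 64.7, 65.9 and 67.4 CPM in GF replicates 1 to 4, and 70.7, 69.8, 82.9 and 68.9 CPM in GFR1 to GFR4. Every GF and every exGF library lay above every CON library and GFR3 stood highest of all. On the log2 scale the fold change was 0.10 in GF (95% interval -0.07 to 0.27) and 0.20 in exGF (0.02 to 0.38) against the same CON libraries. In edgeR quasi-likelihood fits, with p-values adjusted by Benjamini-Hochberg over all tested genes and a limit of 0.1, neither passed (adjusted p = 0.759 and 0.880), and the unadjusted p in exGF was 0.0337. Without GF replicate 1 the value in GF was 0.05. Cux1 is a homeodomain factor, and its locus also codes for a Golgi protein that shares its start. Counting took no account of strand, and 1.97% of the Cux1 exons overlap the antisense gene Gm16599.

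Cux2 (ENSMUSG00000042589, chr5:121856366-122050102, minus strand), a narrower marker of upper layer neurons than Cux1, had 95.1, 99.8, 94.5 and 96.2 CPM in CON. It had 100.4, 100.5, 86.6 and 92.0 CPM in GF and 86.6, 125.2, 128.7 and 98.9 CPM in exGF. The CON libraries lay close together, while GFR2 and GFR3 stood above all other libraries and GFR1 among the lowest. As a log2 fold change this was -0.02 in GF (95% interval -0.19 to 0.15), 0.18 in exGF (-0.08 to 0.44) and 0.21 between exGF and GF (-0.05 to 0.47). Against CON the value in exGF was 0.29 without GFR1 and 0.10 without GFR3, and against GF it was 0.13 without GFR3. In GF it ran from -0.06 to 0.02 with a library left out.

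Rorb (ENSMUSG00000036192, chr19:18930605-19111196, minus strand), a nuclear receptor strongest in layer 4 of sensory cortex, had 34.9, 32.0, 28.7 and 29.4 CPM in CON. In GF it had 38.9, 37.4, 32.8 and 35.2 CPM, and in exGF 48.4, 41.7, 33.4 and 26.6 CPM. The groups overlapped, and the exGF libraries held both the highest and the lowest value of all 12. The log2 fold change in GF was 0.21 (95% interval 0.000442 to 0.41), with an unadjusted p of 0.0496 and an adjusted p of 0.573 in edgeR (quasi-likelihood, Benjamini-Hochberg). In exGF it was 0.26 (-0.08 to 0.59) against CON, and 0.13 without GFR1 and 0.41 without GFR4.

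Rasgrf2 (ENSMUSG00000021708, chr13:91880400-92131656, minus strand) had 181, 173, 178 and 197 CPM in CON. It had 185, 217, 161 and 195 CPM in GF and 192, 200, 220 and 163 CPM in exGF. Both GF and exGF held libraries above and below the whole CON range. In log2 terms the fold change was 0.05 in GF (95% interval -0.15 to 0.25) and 0.08 in exGF (-0.13 to 0.29). In GF it was 0.03 without CON replicate 2, 0.09 without CON replicate 4 and 0.12 without GF replicate 3. In exGF it was 0.01 without GFR3 and 0.17 without GFR4.

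Of the deep layer genes, Fezf2 (ENSMUSG00000021743, chr14:12342094-12348189, minus strand) had 50.4, 39.7, 48.0 and 48.3 CPM in CON. In GF it had 36.6, 40.1, 46.5 and 43.4 CPM, and in exGF 39.2, 40.2, 39.7 and 55.3 CPM. GFR4 was the highest of the 12 libraries, while the other exGF libraries lay near CON replicate 2, the lowest of CON. Its log2 fold change was -0.16 in GF (95% interval -0.38 to 0.06) and -0.10 in exGF (-0.37 to 0.16). The value in exGF was -0.22 without GFR4 and -0.17 without CON replicate 2. It lay between -0.06 and -0.04 without CON replicate 1, GFR1, GFR2 or GFR3.

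Bcl11b (ENSMUSG00000048251, chr12:107910403-108003602, minus strand), needed by layer 5 neurons that project to the spinal cord, is also made by striatal projection neurons and by some interneurons. Its CPM was 37.9, 45.4, 49.4 and 48.6 in CON, 38.3, 56.9, 44.3 and 58.5 in GF, and 38.3, 40.1, 35.6 and 50.8 in exGF. GF replicates 2 and 4 were above all other libraries, and GFR3 was the lowest. On the log2 scale the fold change was 0.13 in GF (95% interval -0.16 to 0.41), -0.15 in exGF (-0.41 to 0.12) and -0.27 between exGF and GF (-0.58 to 0.05). In GF it was 0.04 without GF replicate 4, 0.05 without GF replicate 2 or CON replicate 1, and 0.22 without GF replicate 1. Against CON the value in exGF was -0.08 without GFR3 and -0.25 without GFR4.

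Tbr1 (ENSMUSG00000035033, chr2:61802930-61814114, plus strand) had 141, 111, 136 and 142 CPM in CON. It had 126, 159, 162 and 152 CPM in GF and 149, 155, 128 and 113 CPM in exGF. In GF, replicates 2 to 4 exceeded every CON library and replicate 1 did not. As a log2 fold change this was 0.18 in GF (95% interval -0.04 to 0.40) and 0.04 in exGF (-0.21 to 0.28). In GF it was 0.10 without CON replicate 2, and in exGF it ran from -0.04 without that library to 0.13 without GFR4.

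Tle4 (ENSMUSG00000024642, chr19:14448150-14598051, minus strand), a corepressor of the Groucho family found in layer 6 neurons, had 46.0, 41.6, 44.5 and 48.4 CPM in CON. In GF it had 32.1, 34.2, 51.7 and 40.5 CPM, and in exGF 44.4, 44.2, 39.0 and 45.9 CPM. The GF libraries held both the lowest and the highest value of all 12. In log2 terms the fold change was -0.19 in GF (95% interval -0.47 to 0.09) and -0.06 in exGF (-0.25 to 0.13). In GF it was -0.34 without GF replicate 3, -0.11 without GF replicate 1 and -0.12 without GF replicate 2. In exGF it was -0.01 without GFR3, -0.03 without CON replicate 4 and -0.09 without CON replicate 2.

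Foxp2 (ENSMUSG00000029563, chr6:14901349-15441977, plus strand), a forkhead factor of layer 6 neurons and also of striatal projection neurons, had 10.99, 14.03, 11.8 and 13.2 CPM in CON. It had 8.92, 12.3, 12.1 and 12.0005 CPM in GF and 14.4, 11.3, 6.99 and 13.4 CPM in exGF. GF replicate 1 and GFR3 were the lowest libraries, and 120 counts stood behind the value of GF replicate 1. Its log2 fold change was -0.14 in GF (95% interval -0.42 to 0.15) and -0.13 in exGF (-0.54 to 0.28). In GF it was -0.05 without GF replicate 1 and -0.08 without CON replicate 2. In exGF it was -0.24 without GFR1, -0.07 without CON replicate 2 and 0.05 without GFR3.

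**Figure D1:**
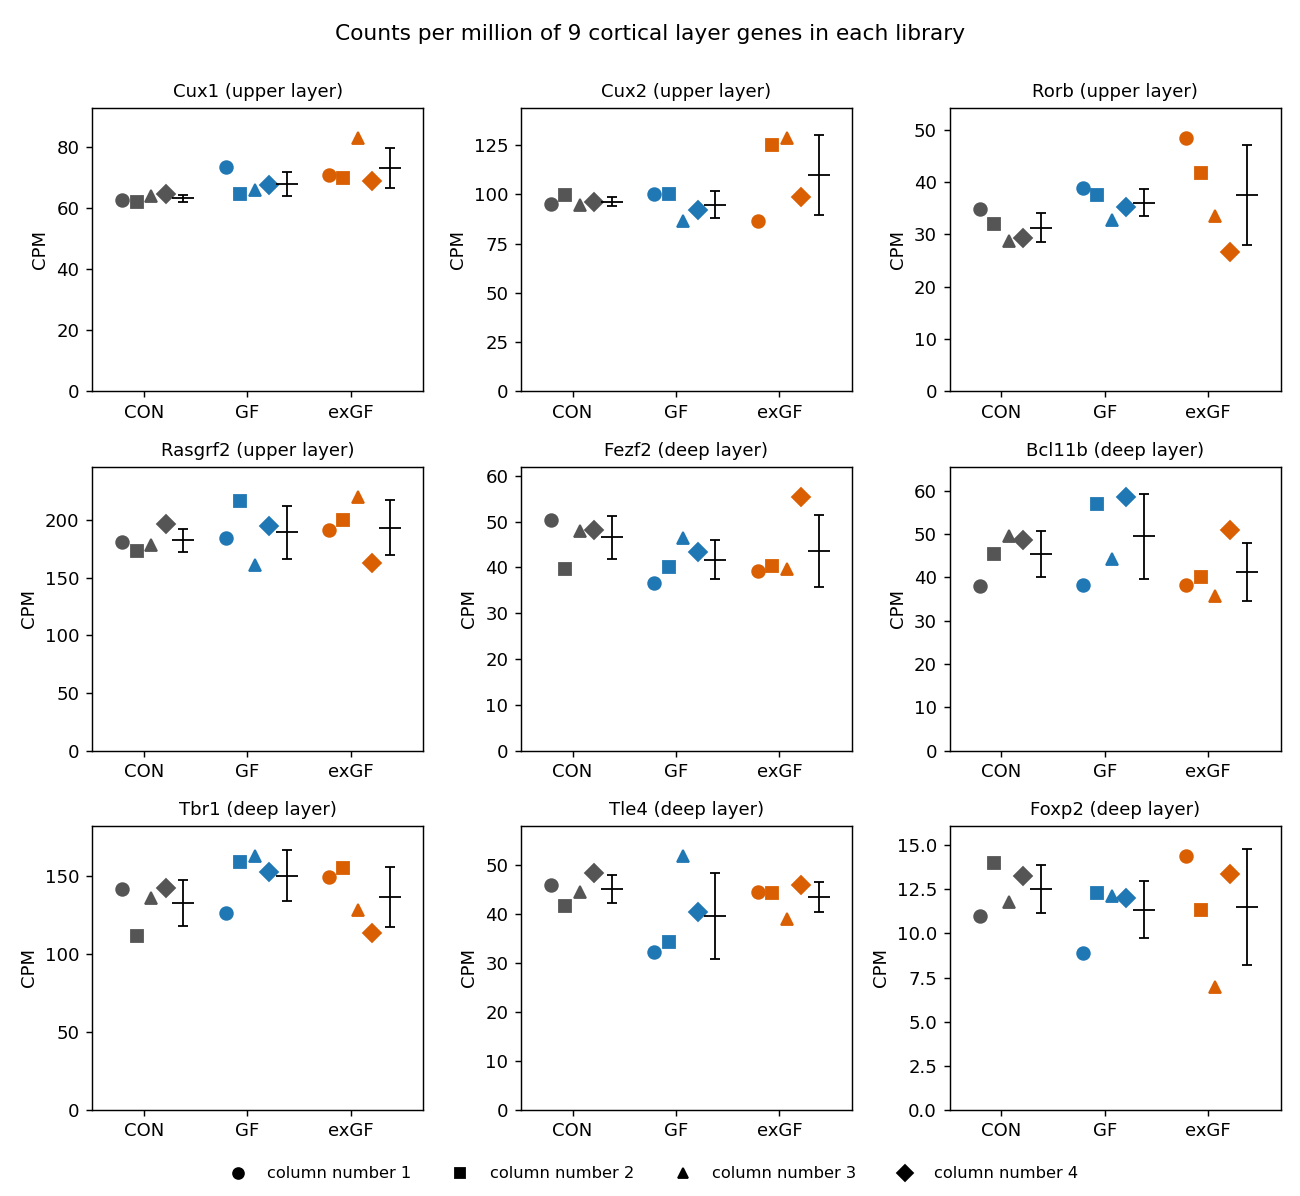
CPM (vertical axis, from 0) of each layer gene in the 4 CON, 4 GF and 4 exGF libraries. Each symbol is a library, its shape giving the number in its column name, and the bar beside each group is the mean with the SD (n = 4); the CON libraries of Cux1 and Cux2 lie close together, while exGF values of Cux2 run from 86.6 to 128.7 CPM and those of Rorb from 26.6 to 48.4 CPM.

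The comparison of GF with CON asks whether growing up without microbes goes with a change in the layer genes. GF mice lived in isolators, and CON and exGF mice in the standard animal unit, exGF from weaning. GF and CON mice also came from separate breeding pairs. In GF against CON, housing and stock thus cannot be told apart from microbes. The same holds for stock and early housing in exGF against CON, and for later housing in exGF against GF. With edgeR (quasi-likelihood, Benjamini-Hochberg), 0 of the 9 layer genes were called in GF at an adjusted p under 0.1, against 39 of 15542 tested genes (0.251%). At an unadjusted p under 0.05 stood 1 of 9 (Rorb), where 8.69% of all tested genes did, and 1 of 9 (Cux1) did not overlap with CON, where 5.08% of tested genes did not. DESeq2 also called 0 of 9, against 195 of the 16194 genes to which it gave an adjusted p (1.2%). Upper layer genes had a positive fold change in 3 of 4 cases and deep layer genes in 2 of 5. Without GF replicate 3 that of Cux2 was positive (0.02), and without GF replicate 2 that of Rasgrf2 was negative (-0.02). The median size of the log2 fold change was 0.14 over the 9 genes and 0.11 over all tested genes.

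The comparison of exGF with CON asks what remained after colonization at weaning, and it shares its CON libraries with the comparison above. Again 0 of 9 were called by edgeR, against 11 of 15813 tested genes (0.0696%), and 0 of 9 by DESeq2, against 52 of 18952 (0.274%). At an unadjusted p under 0.05 stood 1 of 9 (Cux1), where 5.33% of tested genes did, and 1 of 9 (Cux1) did not overlap with CON, where 3.31% of tested genes did not. All 4 upper layer genes had a positive fold change, with a median of 0.19, and 4 of 5 deep layer genes a negative one, with a median of -0.10. Without GFR3 the fold change of Foxp2 was positive (0.05), and that of Tbr1 was negative without CON replicate 2 (-0.04) or GFR2 (-0.02).

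Between exGF and GF, 0 of 9 were called by edgeR, against 0 of 15569 tested genes (0%), and 0 of 9 by DESeq2, against 14 of 16359 (0.0856%). No layer gene reached an unadjusted p under 0.05, where 6.65% of tested genes did, and for none did the groups fail to overlap, where 3.32% of tested genes did. A p that misses the threshold does not show that the levels did not differ. The intervals are what these libraries allow: over the 9 genes and 3 comparisons they ran from 0.670-fold (Bcl11b in exGF against GF) to 1.5045-fold (Rorb in exGF against CON).

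**Figure D2:**
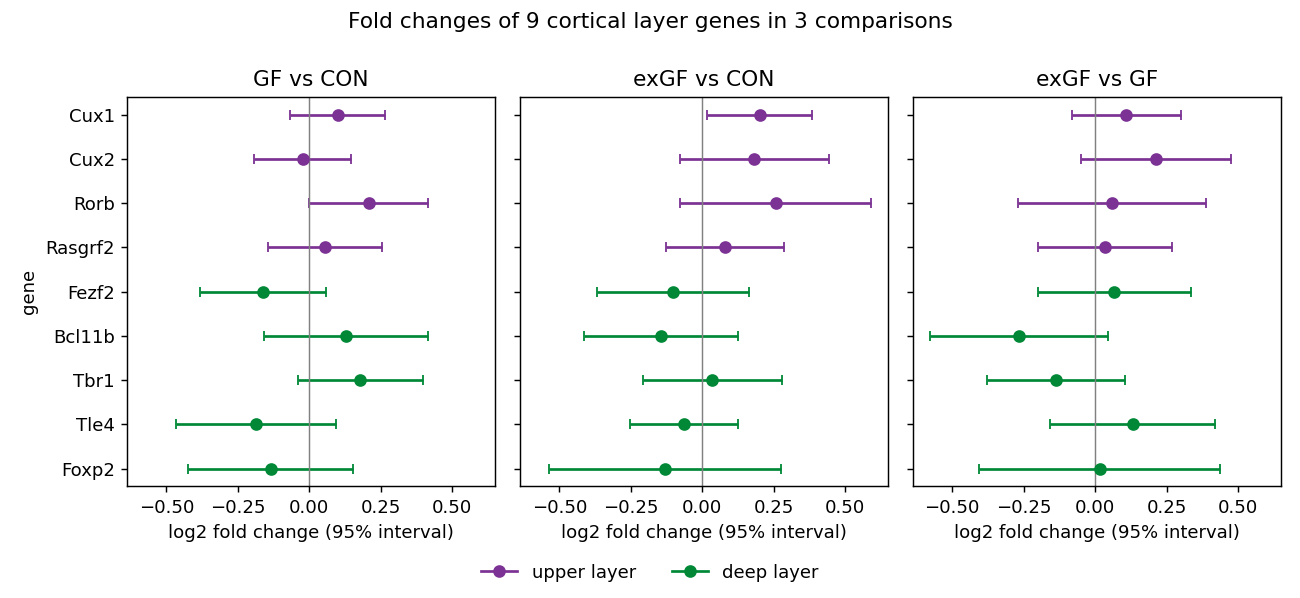
Log2 fold changes (horizontal axis) of the 9 layer genes in 3 comparisons, from edgeR, with 95% intervals; positive values are higher in the group named before "vs". The interval of Cux1 in exGF against CON runs from 0.02 to 0.38 and that of Bcl11b in exGF against GF from -0.58 to 0.05.

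With all libraries included, the layer genes had a wider median spread between pools outside CON, in exGF partly through single libraries. Over the 9 genes, the coefficient of variation within a group had a median of 8.96% in CON (1.80% to 11.5%), 10.9% in GF (5.72% to 22.2%) and 16.2% in exGF (6.95% to 28.4%). It was higher in exGF than in CON for 9 of 9 layer genes, where it was so for 51.4% of 16032 genes. In GF it was higher than in CON for 7 of 9, where it was so for 51.2%. Single libraries carried part of this in exGF. Fezf2 had 55.3 CPM in GFR4 and 39.2 to 40.2 CPM in the other exGF libraries, against 39.7 to 50.4 CPM in CON. Cux1 had 82.9 CPM in GFR3 and 68.9 to 70.7 CPM in the rest of exGF, against 62.1 to 64.6 CPM in CON. Without that library the exGF values of each gene lay closer together than those of CON. The coefficients were not computed with a library left out. Over all genes, the median coefficient was 12.6% in CON, 12.3% in GF and 12.98% in exGF. Among genes of similar mean CPM (within 0.5 on the log2 scale), the coefficient over 12 libraries of Bcl11b exceeded that of 89.1% and the coefficient of Rorb that of 88.9%. That of Cux1 exceeded 36.7%.

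Upper and deep layer genes tended to move apart from library to library. Over 12 libraries, Pearson's r between an upper and a deep layer gene was negative in 18 of 20 pairs, with a median of -0.36, from -0.75 for Cux1 with Foxp2 (Spearman's rho only -0.31) to 0.48 for Rorb with Tbr1 (rho 0.44). Between genes of the same layer group, r was negative in 2 of 16 pairs, with a median of 0.33, and highest for Fezf2 with Tle4 (0.68, rho 0.75). Tbr1 was in both pairs of an upper and a deep layer gene with a positive r, with Rorb and with Rasgrf2 (0.32). With the other deep layer genes its r ran only from -0.11 (Fezf2) to 0.16 (Tle4). Tbr1 was kept in the deep layer list all the same. These are descriptions over pools that share their depth and dissection across all genes.

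The mean log2 CPM of the upper layer genes minus that of the deep layer genes gives the balance of layers in a library, and scaling of the library cancels in it. Relative to the CON mean it was 0.07, 0.08, -0.07 and -0.08 in CON replicates 1 to 4. It was 0.48, 0.16, -0.14 and 0.02 in GF replicates 1 to 4, and 0.20, 0.33, 0.62 and -0.12 in GFR1 to GFR4. CON libraries thus stayed near 0, GF replicate 1 and GFR3 leaned most to the upper layers, and GF replicate 3 and GFR4 lay below all CON libraries. Group means differed from CON by 0.13 in GF and by 0.26 in exGF, with overlap in each case. The difference in GF was 0.01 without GF replicate 1 and 0.22 without GF replicate 3, and that in exGF was 0.14 without GFR3. Between exGF and GF it was 0.13, and 0.01 without GFR3, 0.04 without GF replicate 3, 0.25 without GF replicate 1 and 0.26 without GFR4.

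The same difference taken from the other upper layer genes and the other layer 5 and 6 genes gave another order of libraries. It was 0.29, 0.34, -0.10 and 0.04 in GF replicates 1 to 4 and 0.07, 0.38, 0.43 and -0.11 in GFR1 to GFR4, so that GF replicate 2 and GFR2 exceeded GF replicate 1. Group means then differed by 0.14 between GF and CON, by 0.20 between exGF and CON and by 0.05 between exGF and GF. In GF this was 0.09, 0.07 and 0.22 without GF replicates 1, 2 and 3, and in exGF against CON it was 0.12 without GFR3 and 0.30 without GFR4. Between exGF and GF it ran from -0.03 without GF replicate 3 or GFR3 to 0.15 without GFR4.

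The balance came from both sides. The list value of the upper layer genes, their mean log2 CPM relative to CON, was 0.15 in GF replicates 1 and 2 and 0.18, 0.27 and 0.30 in GFR1 to GFR3. It was -0.06 in GFR4 and -0.05 in GF replicate 3. For the deep layer genes it was -0.32 in GF replicate 1 and -0.33 in GFR3, and between -0.08 and 0.09 in the other 10 libraries.

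Other genes of the same layers, none of them used in that balance, followed it. The list value of 14 other upper layer genes had a Pearson's r of 0.74 with it over 12 libraries (Spearman's rho 0.87), and 0.85 over the 10 libraries left without GF replicate 1 and GFR3. For 9 other layer 6 genes r was -0.88 (rho -0.87, and -0.79 without those libraries), and for 4 genes of layer 6b, the thin sheet of neurons on the white matter, -0.88 (rho -0.84, and -0.80). The relation also stood among libraries of the same group: with deviations from group means, r was 0.72, -0.86 and -0.88. For 14 other layer 5 genes it was weaker (r -0.57, and -0.29 without those libraries). Lists that do not mark layers were not all unrelated to it. For 5 endothelial genes r was 0.64 (rho 0.70, 0.58 without those libraries, and 0.69 with deviations from group means). For 4 hippocampal genes r was -0.58 (rho -0.50, -0.58 without those libraries, and -0.58 with deviations from group means). It was -0.27 for 9 cortical excitatory neuron genes (rho -0.15), with the sign turned without those libraries (0.16), and 0.00 for 10 inhibitory interneuron genes (rho -0.13, and -0.15). All points share the same 12 libraries, and the pools, their depth and their dissection are common to both axes.

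Layer 6b varied widely outside CON. The list value of the layer 6b genes was -0.54 in GF replicate 1, -0.73 in GFR2 and -0.78 in GFR3, but 0.35 in GF replicate 3 and 0.32 in GFR4. In CON it stayed between -0.13 and 0.11. Its most abundant gene, Ccn2, a secreted matrix protein with 23.2% of its exons under an antisense gene, had 12.1 CPM in GF replicate 1 and 10.45 CPM in GFR3, against 31.5 CPM in GF replicate 4 and 18.8 to 22.3 CPM in CON. For the other layer 6 genes the value was -0.37 in GF replicates 1 and 2, -0.33 in GFR2 and -0.45 in GFR3, and 0.12 at most, in GF replicate 3. Group means of the layer 6 list lay below CON by 0.18 on the log2 scale in GF and by 0.22 in exGF, with overlap. As signed differences, GF minus CON was -0.12 without GF replicate 1 or 2 and -0.28 without GF replicate 3. The exGF minus CON difference was -0.14 without GFR3. GFR2 and GFR3 also had the largest shares of read pairs outside genes (7.31% and 6.45%), where the other libraries had 4.57% to 5.89%. The part of this share in the layer values was not tested.

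**Figure D3:**
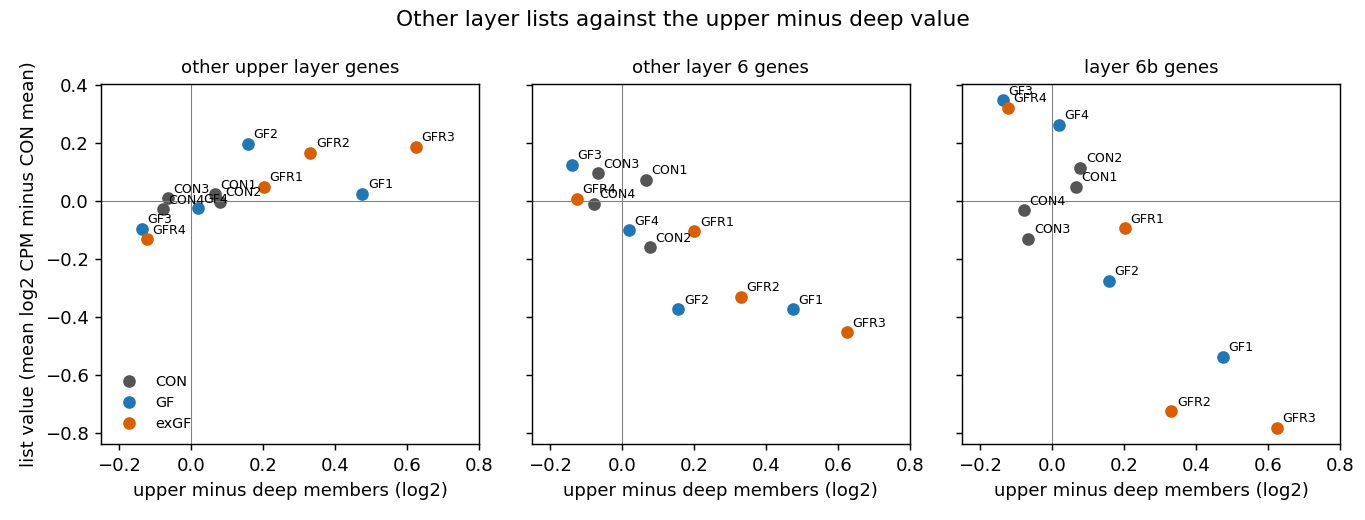
List values (vertical axis, mean log2 CPM relative to the CON mean) of other upper layer, other layer 6 and layer 6b genes against the difference between upper and deep layer genes (horizontal axis, log2), with a point for each of the 12 libraries. GFR3 and GF replicate 1 lie at the right end (0.62 and 0.48), with layer 6b values of -0.78 and -0.54.

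Among these 41 other layer genes, edgeR (quasi-likelihood, Benjamini-Hochberg) called 1 in GF, where it called 0.251% of all tested genes, 0 in exGF against CON (0.0696%) and 0 in exGF against GF (0%). Crym, a thyroid hormone-binding protein listed here for layer 5 and also made in the striatum, had 87.6, 97.3, 76.9 and 86.3 CPM in CON and 55.5, 60.5, 61.8 and 62.8 CPM in GF. In exGF it had 60.2, 56.8, 65.5 and 86.9 CPM, so that GF lay below CON throughout while GFR4 stood within the CON range. The log2 fold change in GF was -0.53 (95% interval -0.72 to -0.34), with an adjusted p of 0.0242 in edgeR, lower in 4 of 4 libraries. It was not called when all 12 libraries were fitted together (adjusted p = 0.115, where the range over all alternatives was 1.5e-05 to 0.115). In exGF it was -0.38 (-0.66 to -0.10), which did not pass.

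The other upper layer genes with the lowest p in GF were Otof, a calcium sensor of vesicle release, and Rspo1, a secreted activator of Wnt signalling. Otof had 28.5, 28.1, 19.4 and 29.1 CPM in CON and 17.2, 22.3, 17.7 and 17.8 CPM in GF, with a log2 fold change of -0.48 (95% interval -0.78 to -0.18). Its adjusted p in edgeR (quasi-likelihood, Benjamini-Hochberg) was 0.275, and it passed with DESeq2 (0.0987) and with no filter on low counts (0.0585), the range over the alternatives being 0.0585 to 0.531. Rspo1 had a log2 fold change of 0.40 in GF (0.02 to 0.79) and 0.29 in exGF (-0.08 to 0.66), and Plcxd2 had 0.21 in exGF (-0.11 to 0.53). Between exGF and GF, Otof had 0.49 (0.16 to 0.82) and the adhesion protein Mdga1 0.25 (-0.06 to 0.56).

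In the deep lists, the lowest p in GF after Crym belonged to Vat1l (-0.27, 95% interval -0.48 to -0.07), Osr1 (-0.70, -1.22 to -0.18) and the secreted protein Nxph3 (-0.31, -0.63 to 0.01). In exGF against CON, Rprm, a cell cycle inhibitor strong in layer 6, had a log2 fold change of -0.38 (-0.64 to -0.12), Nxph3 -0.39 (-0.75 to -0.04) and Tshz2 -0.41 (-0.83 to 0.0033). None of these passed by edgeR, and 67.5% of the Tshz2 exons overlap antisense genes, where reads could not be assigned. Nxph3 passed in GF only without GF replicate 3 (edgeR adjusted p = 0.0857, where the range over the alternatives was 0.0857 to 0.830). Of layer 6b, Moxd1 had -0.32 in GF (-0.76 to 0.12) and -0.41 in exGF (-0.73 to -0.09), Cplx3 0.19 in GF (-0.19 to 0.57) and Nxph4 -0.44 in exGF (-1.37 to 0.49). Between exGF and GF the genes of lowest p were Qrfpr (0.41, -0.25 to 1.07), Crym (0.16, -0.10 to 0.43), Sulf1 (-0.21, -0.59 to 0.16), Hs3st4 (-0.17, -0.55 to 0.20), Nxph4 (-0.58, -1.52 to 0.36) and Ccn2 (-0.24, -0.89 to 0.40). With a library left out, the sign turned for Cplx3 in GF (-0.02 without GF replicate 3) and for Ccn2 in exGF against GF (0.01 without GF replicate 4). Many of the other values that did not pass moved by over 1.5 times, as for Crym in exGF against GF (0.02 without GFR4).

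By list, the median log2 fold change in GF was 0.08 for the other upper layer genes, -0.03 for layer 5, -0.15 for layer 6 and 0.10 for layer 6b, where it was 0.01 over all tested genes. The list value of layer 6b differed in the other direction, by -0.05 in GF. It was -0.54, -0.27, 0.35 and 0.26 in GF replicates 1 to 4, so single libraries set this direction. In exGF against CON the medians were 0.05, -0.06, -0.20 and -0.31, where the median was -0.01 over all tested genes. Layer 6 genes had a negative fold change in 5 of 9 cases in GF and in 7 of 9 in exGF. At an unadjusted p under 0.05 stood 2 of 14 other upper layer genes in GF and 0 in exGF, 2 of 14 and 1 of layer 5, 1 and 2 of 9 of layer 6, and 0 and 1 of 4 of layer 6b. Over all tested genes the shares were 8.69% in GF and 5.33% in exGF.

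Relatives of the layer genes were tested beside them. Of 13 family members, 9 were tested in GF and 10 in exGF against CON, and 0 were called in any comparison (of all tested genes 0.251% in GF, 0.0696% in exGF against CON and 0% in exGF against GF), with 1 (Rasgrf1, in exGF against CON) at an unadjusted p under 0.05. The lowest p in GF belonged to the nuclear receptor Rora (0.25, 95% interval -0.03 to 0.52) and the forkhead factor Foxp1 (0.13, -0.04 to 0.29). In exGF against CON they were Rasgrf1, the most abundant relative (0.17, 0.0046 to 0.34), and the corepressor Tle2 (0.30, -0.11 to 0.72), and against GF again Tle2 (0.35, -0.01 to 0.72) and Rasgrf1 (0.14, -0.03 to 0.30). The list value of the relatives, which also takes in those too low to test, was below CON in all 4 GF libraries, with a mean of -0.33, while the median log2 fold change of the tested ones was 0.02. Of the low genes, Eomes (1.98 CPM in CON replicate 3, 0.287 to 0.384 CPM in the other CON libraries and 0 to 0.268 CPM in GF) and Tbx21 (mean 0.376 CPM in CON and 0.175 CPM in GF) also stand on the list of olfactory bulb genes. The value of that list was 1.07 in CON replicate 3 and lower in GF than in CON by 1.21, and its part in the value of the relatives was not tested. In sequence, 1.40% of the 31-base words of Tle4 also occur in Tle1, and 0.194% of those of Rasgrf2 occur in any other gene.

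Oligodendrocytes, the myelin-forming cells, are dense near the white matter. In GF, 7 of 10 oligodendrocyte genes were called higher than CON and 0 lower, with a median log2 fold change of 0.82, where 0.251% of all tested genes were called in GF. Of these calls that of Mog was lost without CON replicate 3 (edgeR adjusted p = 0.147, with a range of 0.0107 to 0.147 over libraries left out). The list value was 0.72, 0.40, 1.14 and 0.70 in GF replicates 1 to 4, and 0.34, -0.14, -0.21 and 0.61 in GFR1 to GFR4. GF replicate 1 had a high oligodendrocyte value with a low layer 6b value, and GF replicate 3 had high values of both. Apart from GF replicate 1, the libraries of each group had the same order by both lists. In exGF the oligodendrocyte and layer 6b values were 0.61 and 0.32 in GFR4, and 0.34 and -0.10 in GFR1. They were -0.14 and -0.73 in GFR2, and -0.21 and -0.78 in GFR3. Over the 12 libraries the oligodendrocyte value had an r of -0.30 with the upper minus deep value (rho -0.31). It was -0.40 without GF replicate 1 and GFR3, and -0.66 with deviations from group means. The part of the oligodendrocyte value in the layer genes was not tested.

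**Figure D4:**
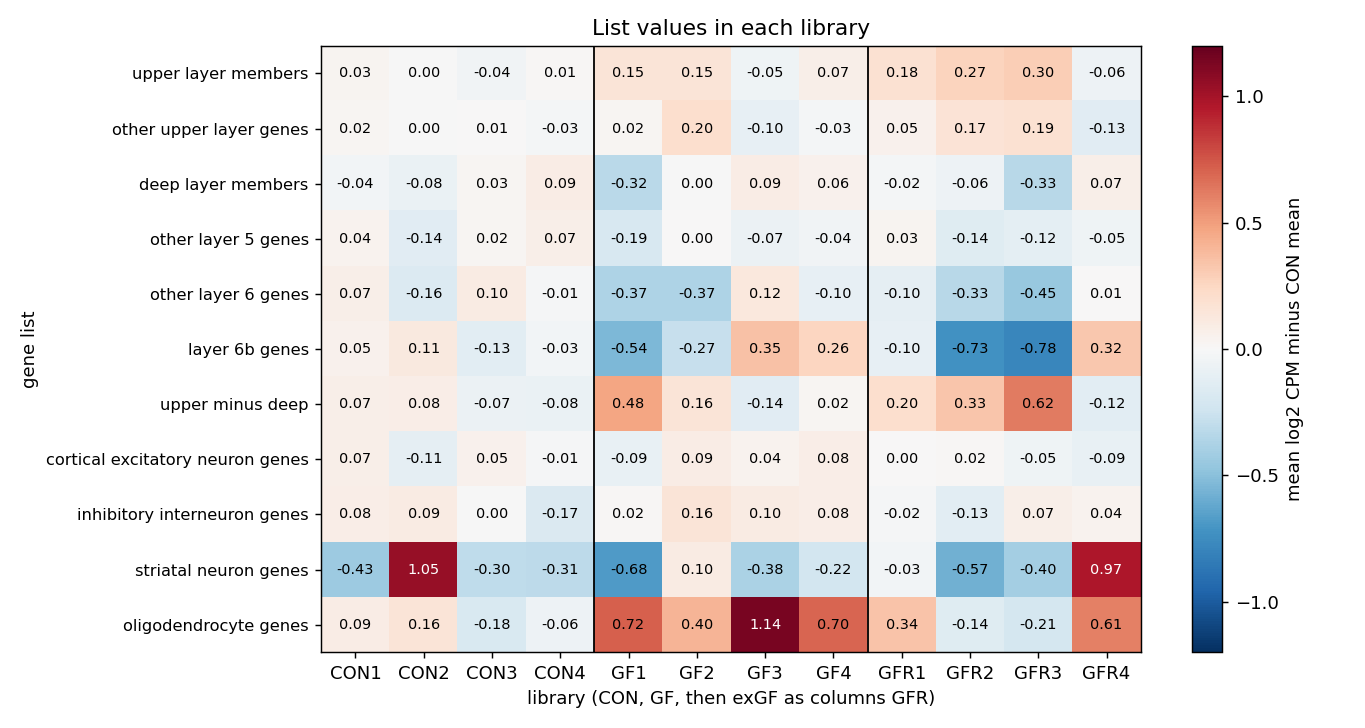
Mean log2 CPM of gene lists (rows) in each library (columns), relative to the CON mean, with red for higher and blue for lower. The row of the striatal list stands out in CON replicate 2 (1.05) and GFR4 (0.97), and the row of layer 6b in GFR2 (-0.73) and GFR3 (-0.78).

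Genes whose pattern over the 12 libraries was most like that of each layer gene were searched among 14177 genes with a mean of at least 1 CPM, by Pearson's r of log2 CPM. For the upper layer genes they were Slc24a3 (0.89), 6330403L08Rik (0.87) and Osbp2 (0.86) for Cux1, and Wnk2 (0.93), Heatr6 (0.92) and Pou2f2 (0.91) for Cux2. They were Ly75 (0.95), Fzd6 (0.89) and AI593442 (0.86) for Rorb, and A830092H15Rik (0.93), Atxn1l (0.90) and Kcnh5 (0.89) for Rasgrf2. For the deep layer genes they were Csf1 (0.88) and St6gal1 (0.86) for Fezf2, Ddx20 (0.88), Gpt2 (0.87) and Rnd3 (0.86) for Bcl11b, and Cdc37l1 (0.93), Polr3g (0.93) and Gopc (0.92) for Tbr1. None of these genes was on a list of layer genes. Tle4 was closest to Tdp1 (0.89), Was (0.86) and Pcdhb22 (0.84), and Foxp2 to Srsf7 (0.88), Zfp68 (0.88) and Tyw5 (0.87). The values are the highest of many and describe these libraries. Without the pair of libraries farthest from each layer gene's median, r was among the lowest for Foxp2 with Zfp68 (0.51), Tle4 with Pcdhb22 (0.57) and Tle4 with Tdp1 (0.63). It was 0.64 for Cux2 with Wnk2 and 0.87 for Rorb with Ly75.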

How the data were processed

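The authors trimmed read pairs with Trimmomatic 0.32, aligned them to GRCm38.p3 with STAR and counted pairs on Ensembl 78 genes with HTSeq 0.6.0, without regard to strand. The deposited values are raw counts per gene in 12 libraries, with no normalization. Pairs not assigned to a gene were left out of library sizes and tests: 4.57% to 7.31% lay outside genes, 1.10% to 1.32% overlapped several genes and 12.95% to 19.2% aligned to several places. GFR columns were taken as exGF libraries.

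Gene names, positions and lengths came from GENCODE release M21 (GRCm38), which named 40340 of 41388 genes. For each pair of groups, genes passing filterByExpr were scaled by TMM and tested with edgeR 4.0.16 (quasi-likelihood, Benjamini-Hochberg, limma 3.58.1, R 4.3.3), and called at an adjusted p under 0.1. CPM per library used TMM over all 12. Intervals came from the fit's standard error. A list value averages log2 CPM (prior count of 1) over its genes and subtracts the average of CON. The fits were tested on simulated data, and the outcome of that check is not given here. Between libraries of the same group the chi-square averaged 9.26 to 40.2 over genes, and pure counting error would give about 1.

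The layer genes and the 20 lists (144 genes, from general knowledge) were chosen with earlier results of these data known. Named were all 9 layer genes, and from each list every called gene, the 2 with the lowest p in each comparison, for region and cell lists the most abundant gene and genes with at most 3 counts in every library, and the 3 genes most like each layer gene; a few genes that this rule takes are not reported here. Drd2 and Rarb were named after their values were seen. Alternatives were RLE, scaling to 9 cortical excitatory neuron genes, no filter, DESeq2 1.42.0 with a prior on fold changes, a single fit of 12 libraries, a threshold of 0.05, the replicate number as a block, each library left out, a prior count of 5, the median over genes, other layer genes for the balance and the longest transcript for length.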

Additional observations from a re-analysis of the deposited data

Results flagged for a closer look

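In each group of 4 libraries, the highest or lowest library was compared with the others by its gap to the nearest of them over the group's range, against Dixon's 95% limit. Of 90 groups (the 9 layer genes and the list values, in 3 groups of mice), 7 passed this limit, where chance flags about 1 in 20 groups. Of the layer genes, Cux1 stood at 82.9 CPM in GFR3, where the other exGF libraries had 68.9 to 70.7 CPM. Fezf2 stood at 55.3 CPM in GFR4, where they had 39.2 to 40.2 CPM. Foxp2 stood at 8.92 CPM in GF replicate 1, where the other GF libraries had 12.0005 to 12.3 CPM.

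Of the lists, the striatal neuron genes had a value of 1.05 in CON replicate 2, against -0.43 to -0.30 in the rest of CON. The difference between other upper and other layer 5 and 6 genes was 0.14 in the same library, against -0.07 to -0.03. In GF, the thalamic genes had a value of 0.22 in replicate 2, against -0.32 to -0.26, and the choroid plexus genes 0.95 in replicate 1, against -0.59 to -0.37.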

How the results depend on the processing

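In all 3 comparisons 0 of 9 layer genes were called under every alternative run, and their adjusted p ran from 0.377 to 0.995 in GF, from 0.525 upward in exGF against CON and from 0.251 to 0.999 in exGF against GF. Calls over all genes moved more. In GF they went from 39 to 221 with no filter, 195 with DESeq2 and 60 without GF replicate 2. In exGF against CON they went from 11 to 48 with no filter, 52 with DESeq2 and 17 without CON replicate 2 and GFR4. In exGF against GF they went from 0 to 32 with no filter, 14 with DESeq2, 2 in a single fit or without GF replicate 4, 7 without GFR1 and 6 without GFR4.

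Some fold changes turned sign with a library left out. In GF, Rasgrf2 ran from -0.0181 (without GF replicate 2) to 0.12 (GF replicate 3), and Cux2 from -0.0614 (GF replicate 1) to 0.0184 (GF replicate 3). In exGF against CON, Tbr1 ran from -0.0354 (CON replicate 2; -0.0227 without GFR2) to 0.13 (GFR4), and Foxp2 from -0.24 (GFR1) to 0.04997 (GFR3). In exGF against GF, Foxp2 ran from -0.11 (GFR1; -0.0718 without GF replicate 1, -0.0683 without GFR4) to 0.19 (GFR3), Rasgrf2 from -0.0386 (GF replicate 3; -0.0343 without GFR3) to 0.11 (GFR4), Rorb from -0.0888 (GFR1) to 0.19 (GFR4), and Fezf2 from -0.0696 (GFR4) to 0.12 (GF replicate 3).

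With the replicate number as a replicate block, 0 of 9 were called in GF and 51 genes in all, though libraries of equal number were not alike (r -0.08 to 0.09). GFR columns could not be paired. Per kilobase of the longest transcript, levels were 5.29 CPM for Cux1, 11.4 for Cux2, 3.76 for Rorb, 32.5 for Rasgrf2, 18.1 for Fezf2, 5.59 for Bcl11b, 35.1 for Tbr1, 9.40 for Tle4 and 1.74 for Foxp2, in the same order.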

Other observations

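The remaining lists gave these values, beside which edgeR called 0.251% of all tested genes in GF, 0.0696% in exGF against CON and 0% in exGF against GF. Of the cortical excitatory neuron genes, led by Camk2a (mean 4201 CPM), 0 of 9 were called in any comparison. Their genes of lowest p were Neurod2 (log2 fold change 0.19 in GF), Sv2b (0.18 in GF), Bhlhe22 (-0.38 in exGF against CON), Slc17a7 (0.10), and Neurod2 (-0.16) and Neurod6 (-0.23) in exGF against GF. Of the interneuron genes, led by Gad1 (mean 302 CPM), 0 of 10 were called. Those of lowest p were Pvalb (0.41) and Npy (0.28) in GF, Dlx1 (-0.22) and Gad1 (0.13) in exGF against CON, and Sst (-0.35) and Npy (-0.24) in exGF against GF. Of 12 striatal genes, 0 of the 11 tested were called. Those of lowest p were Gpr6 (-1.09) and Rgs9 (-0.48) in GF, Pde10a (0.10) and Tac1 (-0.19) in exGF against CON, and Pde10a (0.28) and Adora2a (0.96) in exGF against GF. Several of these moved with the libraries high in striatal genes: without CON replicate 2 the value in GF was 0.10 for Rgs9 and -0.54 for Gpr6, and Tac1 had 0.26 in exGF against CON. Adora2a had 0.32 in exGF against GF without GFR4. Tac1 was also positive without GFR2 (0.01), and Pde10a was negative in exGF against CON without CON replicate 1 (-0.02).

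Of the claustrum genes, led by Gng2 (mean 216 CPM), Nr4a2 was called in GF. This nuclear receptor, also induced by neuronal activity, had 12.1, 10.4, 10.8 and 10.1 CPM in CON and 30.6, 14.0038, 22.6 and 21.4 CPM in GF, a log2 fold change of 1.02 (adjusted p = 0.0384 in edgeR, quasi-likelihood with Benjamini-Hochberg, higher in 4 of 4 libraries). The call was lost without CON replicate 3 (edgeR adjusted p = 0.134) or GF replicate 3 (0.118), with a range of 0.00588 to 0.134 over libraries left out. Gnb4 had 0.28 in GF and -0.26 in exGF against GF, Ntng2 0.32 and Nr4a2 0.34 in exGF against CON, and Nr4a2 -0.66 in exGF against GF. Of the olfactory bulb genes, led by Cdhr1 (mean 4.57 CPM), 2 of 4 were tested and 0 called. Cdhr1 had 10.3 CPM in CON replicate 3 and 2.304 to 7.59 CPM elsewhere, with fold changes of -1.08 in GF, -0.80 in exGF against CON and 0.29 between exGF and GF. Doc2g, which shares 63.5% of its exons with another gene, had -0.80, -0.39 and 0.42 in the same comparisons. Without CON replicate 3, where it had 3.89 CPM against 0.952 to 2.73 CPM in the rest of CON, it had -0.41 in GF and -0.0044 in exGF against CON. Cdhr1 then had -0.79 and -0.51, and Doc2g had 0.27 in exGF against GF without GFR4. The list value was above CON in all 4 GF libraries for the claustrum genes and below CON for the olfactory bulb genes.

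Of the hippocampal (led by Zbtb20, mean 39.3 CPM), thalamic (Calb2, 16.4 CPM) and choroid plexus genes (Kl, 2.80 CPM), 0 were called. Those of lowest p were Prox1 (0.24 in GF, 0.09 in exGF against CON, -0.14 in exGF against GF), Zbtb20 (-0.12 in GF), Spink8 (-0.50 in exGF against CON, -0.60 against GF), Prkcd (-0.51, -0.37 and 0.15), Calb2 (-0.34 in GF and -0.42 in exGF against CON), Lef1 (0.12 in exGF against GF), Kl (-0.75 in GF and -0.68 in exGF against CON), Ttr (1.16, 0.24 and -0.90) and Clic6 (0.40 in exGF against GF). Ttr had 9.29 CPM in GF replicate 1 and 0.38 to 0.67 CPM in the other GF libraries, and without that library its values were -1.21 in GF and 1.45 in exGF against GF. In exGF against CON it was -0.05 without CON replicate 3 and -0.32 without GFR3. The sign also turned for Zbtb20 in GF without CON replicate 4 (0.01), and in exGF against GF without GFR4 for Prkcd (-0.03) and Clic6 (-0.34). Of 4 hindbrain and spinal cord genes, Hoxb2 and Hoxc6 had 0 counts in every library, and Hoxb3 and Hoxb5 had at most 3.

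The oligodendrocyte genes called in GF included Ermn (0.85), Mobp (0.99), Mal (0.89), Mbp (0.86, the most abundant, mean 1431 CPM), Cldn11 (0.75) and Mog (0.82). In exGF 0 of 10 were called, with Mal at 0.25 and Mobp at 0.27 against CON, and Ermn at -0.74 against GF. Of the astrocyte (led by Slc1a2, mean 2624 CPM), microglia (Csf1r, 95.4 CPM) and endothelial genes (Flt1, 93.6 CPM), 0 were called. Those of lowest p were Gfap (-0.22) and Aldoc (0.12) in GF, Gja1 (-0.30) and Gfap (-0.32) in exGF against CON, and Aqp4 (-0.23) and Aldoc (-0.12) in exGF against GF. Of microglia they included Csf1r (-0.24) and C1qa (-0.34) in GF, Cx3cr1 (-0.26) in exGF against CON, and Tmem119 (-0.14) in exGF against GF. Other genes lie over parts of the exons of Csf1r (15.1%), Ermn (6.52%) and Dlx1 (6.21%), where reads cannot be told apart. The list value of the microglia genes was below CON in all 4 exGF libraries. Of endothelium they were Cldn5 (-0.30) and Pecam1 (-0.07) in GF, Flt1 (0.19) and Pecam1 (0.08) in exGF against CON, and Flt1 (0.22) and Cldn5 (0.21) in exGF against GF.

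At an unadjusted p under 0.05, the counts in GF, in exGF against CON and in exGF against GF were 1, 1 and 0 for the excitatory neuron genes, 1, 0 and 2 for the interneuron genes and 1, 0 and 2 for the striatal genes. They were 2, 1 and 0 for the olfactory bulb, 1, 1 and 0 for the thalamic and for the choroid plexus genes, 2, 1 and 2 for the claustrum genes and 0 throughout for the hippocampal genes. For oligodendrocyte genes they were 10, 0 and 7, for astrocyte genes 0, 2 and 0, for microglia genes 2, 5 and 0, and for endothelial genes 1, 0 and 1. Over all tested genes the shares were 8.69%, 5.33% and 6.65%.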
